A study of Mus musculus with 18 samples.

Results

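The related miRNAs miR-10, miR-99, miR-100 and miR-125 were examined in the liver of male Muta™Mouse dosed with the combustion product benzo(a)pyrene (BaP), which liver enzymes convert into metabolites that bind DNA. The set held 7 of the 576 names on the array: mmu-miR-10a, mmu-miR-10b, mmu-miR-99a, mmu-miR-99b, mmu-miR-100, mmu-miR-125a-5p and mmu-miR-125b-5p. They were taken by name for their sequences and gene clusters. The choice was made with earlier results of these data known, so the set is not independent of them. Of the 7, 4 passed the filter on dim probes. All animals came from transgenic strain 40.6, whose cells carry a bacterial lacZ gene for scoring mutations, and were 25 weeks old. For 28 days they were gavaged daily with olive oil alone (3 animals analysed here) or with BaP in it, at 25, 50 or 75 mg/kg/day (5 animals at each dose), and the liver was collected 3 days after dosing ended. Every animal had 1 array, and the comparisons asked whether these miRNAs differed between dosed animals and vehicle controls.

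A miRNA binds messenger RNAs mainly through its seed, the bases near its 5′ end, and lowers their translation or stability. miR-10, miR-99 and miR-100 are related in sequence and belong to one of the oldest animal miRNA families, whereas the miR-125 miRNAs are relatives of lin-4, the founding miRNA of worms. Genes for miR-10 lie within the Hox clusters, whose transcription factors set position along the body axis. Genes for miR-99, miR-100 and miR-125 flank genes for let-7, a miRNA that accumulates as cells differentiate, and each such cluster can be transcribed as 1 precursor. All of these miRNAs are found in many adult tissues, and miR-99a and miR-125b are known from normal liver.

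The mature sequences are shown because the members differ from each other by so few bases that their signals may not be separate, and because the seed sorts them into 3 groups. All 7 names were matched to the 5p arm in RefSeq (GRCm38.p6), and capitals mark the seed, bases 2 to 8 from the 5′ end. The let-7 partners, whose signals are given after those of the members, follow them.
mmu-miR-10a: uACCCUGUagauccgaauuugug
mmu-miR-10b: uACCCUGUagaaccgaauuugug
mmu-miR-99a: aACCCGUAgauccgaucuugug
mmu-miR-99b: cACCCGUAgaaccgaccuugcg
mmu-miR-100: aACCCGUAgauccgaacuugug
mmu-miR-125a-5p: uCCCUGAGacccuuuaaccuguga
mmu-miR-125b-5p: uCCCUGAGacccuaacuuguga
mmu-let-7a: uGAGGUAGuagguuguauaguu
mmu-let-7c: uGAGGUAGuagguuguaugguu
mmu-let-7e: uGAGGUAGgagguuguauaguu

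The seed was shared by mmu-miR-10a and mmu-miR-10b, by mmu-miR-99a, mmu-miR-99b and mmu-miR-100, and by mmu-miR-125a-5p and mmu-miR-125b-5p. Counting positions from 1 at the 5′ end, mmu-miR-10a and mmu-miR-10b differed by the single substitution U12A, and mmu-miR-99a and mmu-miR-100 by U16A. mmu-miR-99a and mmu-miR-99b differed by 4 substitutions (A1C, U11A, U16C and U21C). mmu-miR-10a and mmu-miR-100 were 3 edits apart, counting insertions and deletions, and shared a run of 11 bases that starts at base 7 of the first and base 6 of the second. mmu-miR-125a-5p and mmu-miR-125b-5p were 3 edits apart and began with the same 13 bases. Among the let-7 partners, mmu-let-7a differed from mmu-let-7c by A19G and from mmu-let-7e by U9G. No probe sequence was used here, and how far a probe of one member or partner takes up another was not tested.

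The 7 members have 8 loci in GRCm38.p6, since mmu-miR-125b-5p comes from a pair of genes. mmu-miR-10a lies at chr11:96317186-96317208 within Hoxb3, with Hoxb4 as the nearest other named gene, and mmu-miR-10b at chr2:74726074-74726096 within the gene models of Hoxd3 and Hoxd4. On chromosome 16, mmu-miR-99a (chr16:77598940-77598961) is followed after 710 bases by let-7c (the Mirlet7c-1 copy) and, 46585 bases beyond it, by the Mir125b-2 copy of mmu-miR-125b-5p (chr16:77646279-77646300). On chromosome 17, mmu-miR-99b (chr17:17830194-17830215), let-7e and mmu-miR-125a-5p (chr17:17830817-17830840) are separated by 150 and 429 bases and all lie within Spaca6. On chromosome 9, mmu-miR-100 (chr9:41531437-41531458) and the Mir125b-1 copy of mmu-miR-125b-5p (chr9:41581940-41581961) stand 50481 bases apart, with Mirlet7a-2 between them. All of these loci are on the plus strand.

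The arrays came from 3 slides that also differ in scan date. Slide 1 was of another array design than slides 2 and 3, with other names for some spots. Before normalisation, the median signal of an array lay between 39.5 and 50.5 on slide 1. On slides 2 and 3 it lay between 63 and 69 and between 58 and 64. Slide 1 held 1 control and 2 animals of each dose. Slide 2 held 2 animals at 50 and 2 at 75 mg/kg/day and no control. Slide 3 held 2 controls, 3 animals at 25, 1 at 50 and 1 at 75 mg/kg/day. Between 57 and 144 names were detected per array, with the lowest numbers on 2 arrays at 25 mg/kg/day, and group means lay between 93.2 and 98 names. Values below are log2 signal normalised by cyclic loess without background subtraction, and differences come from limma with slide as a block and Benjamini-Hochberg adjustment over the 69 miRNAs tested, with a threshold of 0.05. Since the background stays in the signal, the difference of a dim probe does not give the size of a difference in RNA. Background subtraction can also change its direction. For mmu-miR-100 at 50 mg/kg/day, the difference from vehicle was -0.09 without and 0.07 with background subtraction. mmu-miR-34a, known as a transcriptional target of p53, rose by 2.07 ± 0.18 (log2, SE) at 75 mg/kg/day (limma adjusted P = 5.4e-07).

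Detection split the family by member rather than by seed group. Each member had 2 probes of 10 spots each, and a probe was counted as present on an array when 0.5 or more of its spots, as a share, were flagged by the scanner software as well above background. mmu-miR-10b, mmu-miR-99b and mmu-miR-125a-5p had no probe present on any of the 18 arrays, and the scanner software called them detected on 0 arrays. They have therefore only a bound and no fold. The 3 names include both members of the chromosome 17 cluster, but let-7e, which lies between them, was present on 17 arrays. Since let-7e differs from let-7a by 1 base, part of its signal may come from let-7a, which was not tested. Names can differ in probe sensitivity, so presence of one and not of another does not rank their amounts.

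Both of the best measured members were present on every array by 1 probe. The brighter probe of mmu-miR-10a and that of mmu-miR-99a were well above background on 18 of 18 arrays. The other probe of mmu-miR-10a was present on 9 arrays, of which 6 were on slide 1, and that of mmu-miR-99a on 3 arrays, all on slide 1.

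The remaining detected members were near the limit of detection. The brighter probe of mmu-miR-100 was present on 12 arrays (3 of 3 controls, then 3, 4 and 2 of 5 animals at 25, 50 and 75 mg/kg/day). That of mmu-miR-125b-5p was present on 14 arrays (3 of 3 controls, then 3, 5 and 3 of 5). Both passed the filter through the controls and the 50 mg/kg/day group, and the controls were the group in which their mean signal was highest, so a count over the members that passed is a description and lends no weight to a decrease. The second probe of each was present on 0 arrays.

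**Figure D1:**
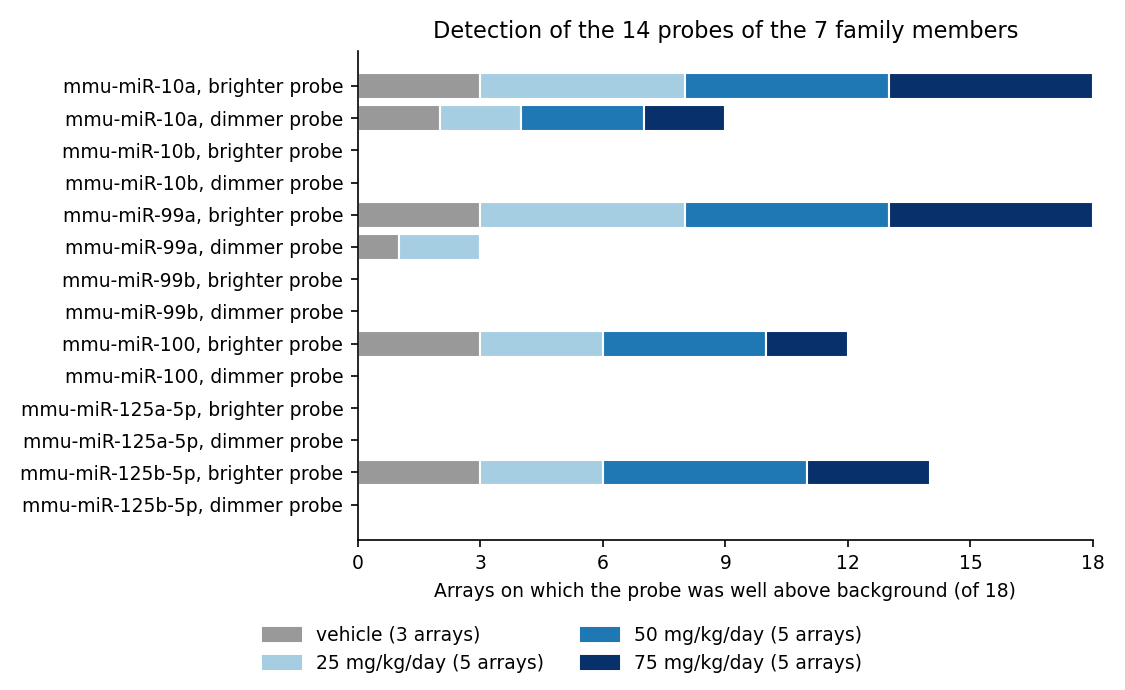
Number of arrays (horizontal axis, of 18) on which each of the 14 probes was well above background, with the bar divided by dose group. Only the brighter probes of mmu-miR-10a and mmu-miR-99a reach 18 arrays, those of mmu-miR-100 and mmu-miR-125b-5p reach 12 and 14, and 8 probes have no bar because they were present on 0 arrays.

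mmu-miR-10a, the HoxB member, had lower group means the higher the dose. In vehicle controls the normalised log2 signal was 6.84, 7.00 and 7.12. At 25 mg/kg/day it was 6.58, 6.76, 7.01, 6.99 and 7.01, and at 50 mg/kg/day 6.82, 6.67, 6.85, 6.90 and 6.90. At 75 mg/kg/day it was 6.56, 6.55, 6.85, 6.84 and 6.75. The values at 75 mg/kg/day overlapped those of the controls only through 1 array of slide 2, a slide on which no control was run, and 4 of 5 lay below every control. Slide by slide, all 3 arrays at 75 mg/kg/day that shared a slide with a control lay below every control of that slide. Slide 1 held only 1 control (6.84), which also lay above its arrays at 25 (6.58 and 6.76) and 50 mg/kg/day (6.82 and 6.67).

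Group means ran from 6.98 ± 0.14 (SD, n = 3) in controls through 6.87 ± 0.19 (SD, n = 5) and 6.83 ± 0.09 (SD, n = 5) to 6.71 ± 0.15 (SD, n = 5) at the highest dose. Once slide effects were removed, the step between 25 and 50 mg/kg/day (0.04 on the log2 scale) was smaller than the spread within either group, whereas the steps from vehicle to 25 (0.10) and from 50 to 75 mg/kg/day (0.12) were 1.18 and 1.52 times the larger SD. Slide accounted for 61.9% of the variance of mmu-miR-10a, and dose for 61.3% of what remained.

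At 75 mg/kg/day mmu-miR-10a fell by 0.25 ± 0.06 (log2, SE), so that its unsubtracted signal fell by 16.2% (95% interval of the log2 difference -0.38 to -0.13, limma adjusted P = 0.0122). Of the 69 miRNAs tested, 5.8% were called in this comparison, and 1 of the 4 members tested was among them. On slide 1 alone the difference was -0.28, and on slide 3 alone -0.31. Exact two-sided permutation tests gave P = 0.0536 over all 8 animals and P = 0.111 with shuffles within slides, the latter being the smallest value that 9 arrangements allow. The call was lost with array medians in place of loess (adjusted P = 0.627), with the background-subtracted processed signal (0.132), with total gene signal (0.29), without slide in the model (0.141) and without vehicle replicate 1 (0.107), although the difference stayed negative in each, and leaving out the 2 arrays at 25 mg/kg/day with the fewest names detected gave -0.26.

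The lower doses gave values in the same direction that did not pass the test. The difference from vehicle was -0.10 ± 0.06 (SE) at 25 mg/kg/day (limma adjusted P = 0.522, and -0.06 without BaP_25 replicate 1), where 0% of miRNAs were called and 7 of 69 had an unadjusted P under 0.05, and -0.14 ± 0.06 (SE) at 50 mg/kg/day (adjusted P = 0.241), where 2.9% were called. The slope over all 18 arrays was -0.08 ± 0.02 (SE) per 25 mg/kg/day and passed the test (adjusted P = 0.00629), in a comparison that called 10.1% of miRNAs, 1 of 4 members tested among them. The slope passed in 11 of 15 other settings. Between 75 and 25 mg/kg/day the difference was -0.16 ± 0.05 (SE), with an adjusted P of 0.117 and 2.9% of miRNAs called.

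**Figure D2:**
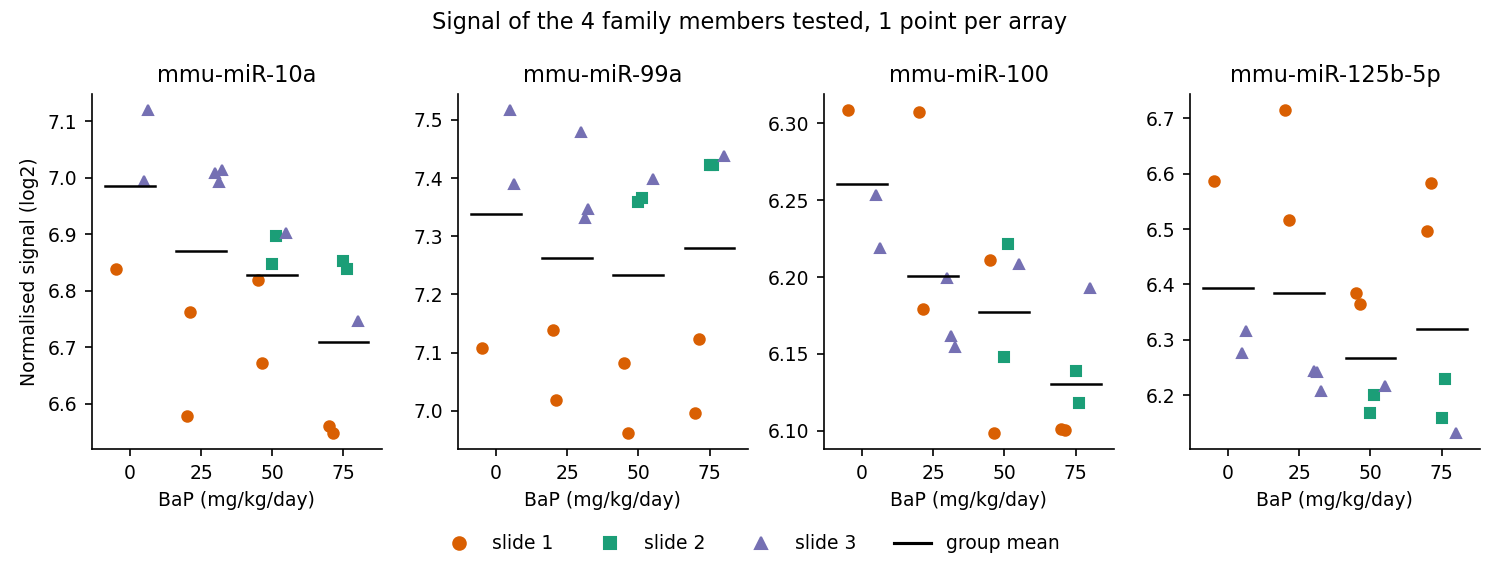
Normalised log2 signal (vertical axis, a separate scale in each panel) of the 4 members tested against BaP dose in mg/kg/day, with 1 point per array, shape and colour giving the slide and a line at each group mean. In mmu-miR-10a the arrays at 75 mg/kg/day are the lowest of slide 1 (6.55 and 6.56) and of slide 3 (6.75), and in mmu-miR-99a and mmu-miR-125b-5p the groups overlap at every dose.

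The probes of mmu-miR-10a gave differences of unequal size. At the level of probes the brighter probe of mmu-miR-10a was called at 75 mg/kg/day (-0.25 ± 0.06, SE, limma adjusted P = 0.0165 over 112 probes, of which 7.14% were called). The dimmer probe, which did not pass the filter in any group, gave -0.07 ± 0.03, -0.10 ± 0.03 and -0.13 ± 0.03 (SE) at 25, 50 and 75 mg/kg/day. After background subtraction and scaling, the brighter probe measured 58.3 ± 6.72 (SD, n = 3) in controls and 46.8 ± 3.83 (SD, n = 5) at 75 mg/kg/day, and the dimmer probe 13.7 ± 4.53 (SD, n = 3) and 12.7 ± 5.49 (SD, n = 5), so that the dimmer probe differed by less than the spread between animals on that scale.

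mmu-miR-10b, the HoxD relative that differs from mmu-miR-10a at 1 base, had no probe well above background. Its brighter probe stayed between 5.81 and 5.96 on the 18 arrays, and no difference is given for it.

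mmu-miR-99a, present on every array, did not pass the test at any dose. Signals ran from 7.11 to 7.52 in controls and from 7.02 to 7.48, 6.96 to 7.40 and 7.00 to 7.44 at 25, 50 and 75 mg/kg/day, so all 4 groups overlapped. The differences from vehicle were -0.05 ± 0.05, -0.08 ± 0.05 and -0.03 ± 0.05 (SE), with limma adjusted P of 0.635, 0.412 and 0.732. The 95% interval at 75 mg/kg/day ran from -0.14 to 0.08, which is from 9.54% lower to 5.52% higher. No gap between neighbouring groups exceeded the spread within them. With the processed signal and with total gene signal the differences were positive at every dose, at 0.09 and 0.23 for 75 mg/kg/day, with adjusted P of 0.732 and 0.0883.

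Its near-identical relative mmu-miR-100 had lower values at each dose without passing the threshold. Signals were 6.31, 6.25 and 6.22 in controls, and at 75 mg/kg/day 6.10, 6.10, 6.14, 6.12 and 6.19. The animals at 75 mg/kg/day all lay below the 3 controls, while 25 mg/kg/day (6.15 to 6.31) and 50 mg/kg/day (6.10 to 6.22) overlapped the controls through 1 array each. The differences were -0.06 ± 0.04, -0.09 ± 0.05 and -0.14 ± 0.05 (SE), with limma adjusted P of 0.55, 0.382 and 0.0744. At the highest dose an exact permutation test, two-sided, gave P = 0.0179, the smallest that 3 controls and 5 animals allow, and P = 0.111 within slides. Slide 1 gave -0.21 for this comparison and slide 3 gave -0.04. Its adjusted P at 75 mg/kg/day passed in 2 of 18 fits without 1 array, those without BaP_25 replicate 1 (0.0435) and without BaP_75 replicate 5 (0.0448), and without vehicle replicate 1 it was 0.449 with a difference of -0.10. Over all 18 fits the difference ran from -0.18 to -0.10, and the slope of -0.04 ± 0.01 (SE) per 25 mg/kg/day had an adjusted P of 0.0605, which became 0.0237 without BaP_75 replicate 5. Across 15 other processing settings the difference at 75 mg/kg/day passed in 0, with adjusted P between 0.0682 and 0.663. With quantile normalisation it was -0.10 (adjusted P = 0.492). The slope passed in 1 of 14 other settings.

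mmu-miR-125b-5p was lowest at 50 mg/kg/day. Signals ran from 6.28 to 6.59 in controls, from 6.21 to 6.71 at 25, from 6.17 to 6.38 at 50 and from 6.13 to 6.58 at 75 mg/kg/day. In each group the arrays of slide 1 were the highest, and slide accounted for 77.9% of the variance. The differences from vehicle were -0.03 ± 0.05, -0.16 ± 0.06 and -0.11 ± 0.06 (SE), with limma adjusted P of 0.826, 0.111 and 0.225. Slides 1 and 3 taken alone gave -0.21 and -0.08 at 50 mg/kg/day, and -0.05 and -0.16 at 75 mg/kg/day. The array cannot assign this signal to chromosome 9 or to chromosome 16, because both genes give the same mature miRNA.

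mmu-miR-99b and mmu-miR-125a-5p, the members on chromosome 17, are reported as not well above background. The brighter probe of mmu-miR-99b lay between 5.71 and 5.78 and that of mmu-miR-125a-5p between 5.76 and 5.88 on the 18 arrays.

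**Figure D3:**
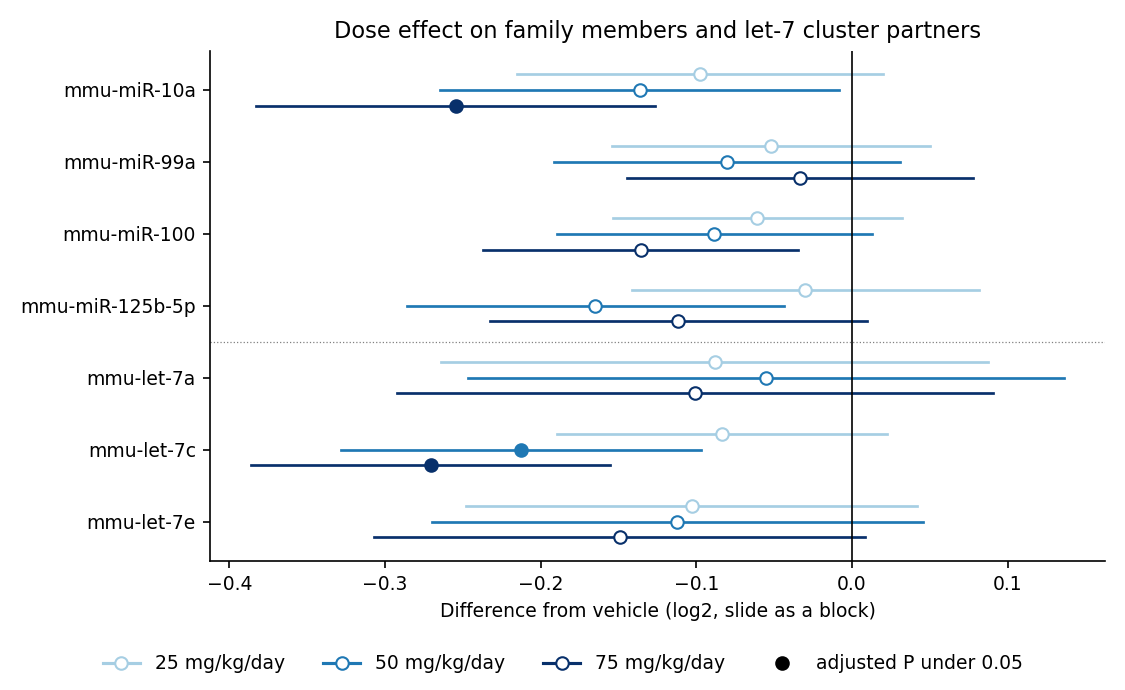
Difference from vehicle in log2 units (horizontal axis) with its 95% interval for the 4 members tested and, below the dotted line, the let-7 partners, at 25, 50 and 75 mg/kg/day. A filled point has an adjusted P under 0.05, as for mmu-miR-10a at 75 mg/kg/day (-0.25) and mmu-let-7c at 50 and 75 mg/kg/day (-0.21 and -0.27), and the interval of mmu-miR-99a spans 0 at every dose.

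Taken as a set, the 4 members tested had differences below 0 at 25, 50 and 75 mg/kg/day, except that mmu-miR-99a was above 0 at 25 mg/kg/day with quantile normalisation, and 1, 2 and 1 of them were above 0 with the processed signal and 1, 4 and 1 with total gene signal. Their median difference was -0.06, -0.11 and -0.12, against medians of -0.02, -0.02 and -0.03 over all 69 miRNAs, of which 56.5%, 66.7% and 60.9% were below 0. The 3 dose comparisons share the same 3 controls. By size of difference at 75 mg/kg/day, mmu-miR-10a was the third most negative of 69, and mmu-miR-100, mmu-miR-125b-5p and mmu-miR-99a ranked 15, 18 and 34.

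**Figure D4:**
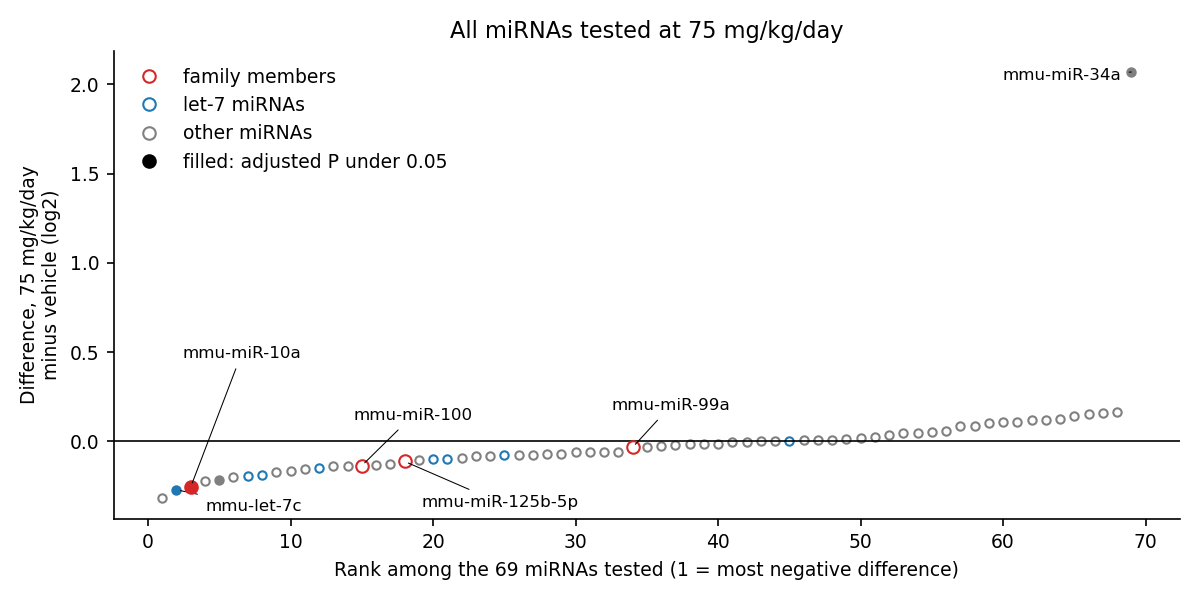
Difference between 75 mg/kg/day and vehicle (vertical axis, log2) for the 69 miRNAs tested, ordered from the most negative (rank 1). Members of the family are red, let-7 miRNAs blue, and filled points have an adjusted P under 0.05. The members spread from rank 3 to rank 34, and mmu-miR-34a stands apart at 2.07.

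Log2 ratios between members on the same array, in which a single scaling factor per array cancels, were compared to ask whether members differed in their response. The log2 ratio of mmu-miR-10a to mmu-miR-99a was 0.22 lower at 75 mg/kg/day (-0.57) than in controls (-0.35), with an exact permutation P of 0.0357 before and 0.643 after adjustment over 18 ratios. The change was -0.27 with slides held apart (exact permutation P = 0.222). The ratio of mmu-miR-10a to mmu-miR-100 changed by -0.15 and that to mmu-miR-125b-5p by -0.20. The smallest P this test allows with 3 controls and 5 animals is 0.0179, so a single ratio could not pass after adjustment over 18, and the 0 ratios that passed say nothing of whether members responded alike. With slide in a fit over all arrays, and no test, the change at 75 mg/kg/day was -0.22 ± 0.09 (SE) for mmu-miR-10a to mmu-miR-99a and 0.10 ± 0.04 (SE) for mmu-miR-99a to mmu-miR-100, while that for mmu-miR-10a to mmu-miR-100 was -0.12 ± 0.09 (SE).

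The let-7 miRNAs of the same clusters were all tested. mmu-let-7c, a neighbour of mmu-miR-99a, fell by 0.27 ± 0.05 (log2, SE) at 75 mg/kg/day (limma adjusted P = 0.00533) and by 0.21 ± 0.05 (SE) at 50 mg/kg/day (adjusted P = 0.0458), and its slope was -0.09 ± 0.02 (SE) per 25 mg/kg/day (adjusted P = 0.00135). The call at 50 mg/kg/day was kept in 2 of 16 other settings and in 6 of 18 fits without 1 array, and that at 75 mg/kg/day in 11 of 16 and in 17 of 18, the exception among the latter being vehicle replicate 1 (adjusted P = 0.107). With total gene signal the difference of mmu-let-7c at 75 mg/kg/day turned to 0.0031 (adjusted P = 0.961). Its slope passed in 10 of 15 other settings and was lost with array medians (adjusted P = 0.762), the processed signal (0.193), total gene signal (0.98), the authors' values (0.05) and no slide in the model (0.114). A mature mmu-let-7c can come from chromosome 15 as well as chromosome 16.

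mmu-let-7a, made from several genes of which one lies beside mmu-miR-100, differed by -0.10 ± 0.09 (SE) at 75 mg/kg/day (limma adjusted P = 0.5), and by -0.02 without vehicle replicate 1. mmu-let-7e, the neighbour of mmu-miR-99b and mmu-miR-125a-5p, differed by -0.15 ± 0.07 (SE, adjusted P = 0.213), by -0.17 with an adjusted P of 0.0155 without BaP_25 replicate 1, and by -0.09 with an adjusted P of 0.738 without vehicle replicate 1. It passed in 1 of 18 fits without 1 array. Of the 3 partners tested, 0, 1 and 1 were called lower and 0 higher at 25, 50 and 75 mg/kg/day, where 0%, 2.9% and 5.8% of all miRNAs tested were called in either direction. The partner of mmu-miR-99a was called at a dose where mmu-miR-99a had an interval that spans 0, and the difference between them was not tested.

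The opposite arms of the same hairpins were below detection. Of 11 listed arms, which are usually degraded when the other arm is loaded, 8 were on the array and were present on 0 arrays. For miR-196, another miRNA with genes in the Hox clusters, 3 of 4 listed names were on the array and 0 were present.

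Likeness between miRNAs was described by the Pearson correlation of log2 values over the 18 arrays after slide means were removed. These values share arrays, normalisation and dose, so no P is given. The miRNAs most like mmu-miR-10a were mmu-let-7d (r = 0.77, rho = 0.87), mmu-let-7b (r = 0.77) and mmu-let-7e (r = 0.66). With dose means removed as well, r was 0.88, 0.64 and 0.57. Without the 2 arrays farthest from the median, it was 0.71, 0.67 and 0.67.

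The other members had different neighbours. mmu-miR-99a was most like mmu-miR-25 (r = 0.70), mmu-miR-139-5p (0.61) and mmu-miR-322 (0.56, and 0.37 without 2 arrays). mmu-miR-100 was most like mmu-miR-199a-3p (0.78), mmu-let-7i (0.73, and 0.25 with slide means kept) and mmu-miR-7a (0.69, and 0.49 without 2 arrays). With dose means removed as well, r of mmu-miR-100 with these was 0.55, 0.61 and 0.52. mmu-miR-125b-5p was most like mmu-miR-26a (0.72, and 0.52 without 2 arrays), mmu-miR-25 (0.65, 0.39 without 2 arrays and 0.01 with slide means kept) and mmu-miR-16 (0.62, and 0.28 without 2 arrays). No member had another member among its 3 most alike.

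Among the members themselves, the 6 pairs had a median r of 0.41, against 0.04 over all 2346 pairs of miRNAs tested. mmu-miR-99a and mmu-miR-100 reached 0.52, mmu-miR-100 and mmu-miR-125b-5p 0.51, and mmu-miR-99a and mmu-miR-125b-5p 0.48. Without the 2 farthest arrays these were 0.40, 0.18 and 0.33, and with slide means kept 0.15, 0.28 and -0.75, where the median of the 6 pairs was 0.20. mmu-miR-10a stood apart from mmu-miR-99a (-0.09) and mmu-miR-125b-5p (0.03). With dose means removed too, the median of the 6 pairs was 0.06, the pairs without mmu-miR-10a kept 0.65, 0.42 and 0.40, and those with it were -0.27, -0.36 and -0.55.

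Marker miRNAs of liver cell types were set beside these results. In a whole-liver sample, fewer cells of a type and less RNA per cell cannot be told apart. For hepatocytes, 3 of 4 listed names were tested (miR-122, miR-192 and miR-194), 0 were called at any dose, and their mean log2 signal lay between 9.41 and 9.51 in controls and between 9.42 and 9.68 at 75 mg/kg/day. For endothelium, mmu-miR-126-3p was tested, ranging from 7.31 to 7.85 in controls and from 7.26 to 7.72 at 75 mg/kg/day, and it was not called, while mmu-miR-126-5p was present on 0 arrays. For blood and immune cells, 3 of 6 listed names were tested (miR-144, miR-451 and miR-223), miR-142-5p and miR-150 were present on 0 arrays, and 0 were called. Their mean lay between 7.12 and 7.5 in controls and between 6.69 and 7.74 at 75 mg/kg/day.

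On the mesenchymal and stellate list, 6 of 7 names were on the array, 1 was tested and 3 (miR-214, miR-143 and miR-145) were present on 0 arrays. The name tested, mmu-miR-199a-3p, ran from 6.57 to 6.66 in controls and from 6.28 to 6.50 at 75 mg/kg/day, without overlap, and fell by 0.22 ± 0.05 (log2, SE, limma adjusted P = 0.00931). The call was kept in 10 of 16 other settings, and the adjusted P was 0.107 without vehicle replicate 1. It was also the miRNA most like mmu-miR-100 (r = 0.78), but both had lower means at higher doses. With dose means removed as well, r was 0.55, below the 0.61 of mmu-let-7i. Its part in the differences of the members was not tested.

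**Figure D5:**
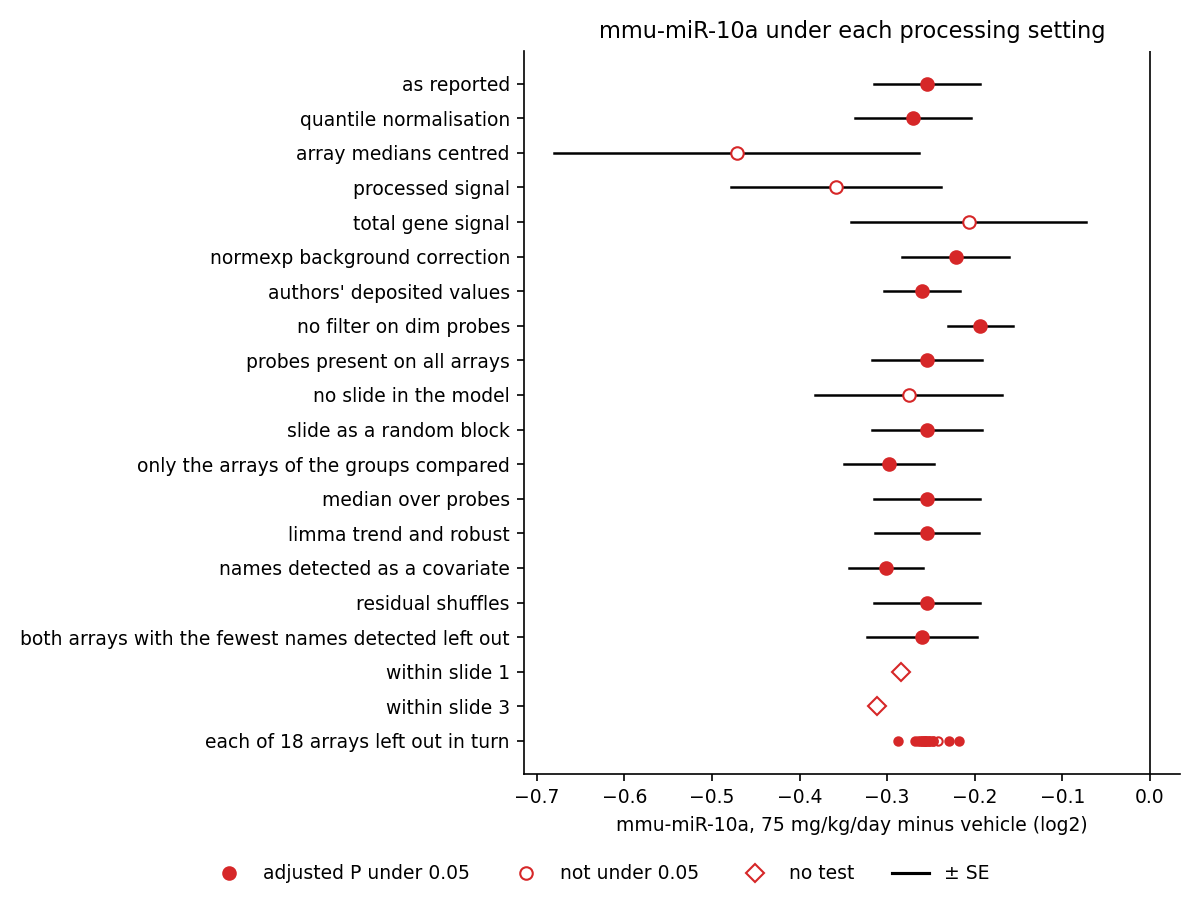
Difference of mmu-miR-10a between 75 mg/kg/day and vehicle (horizontal axis, log2) under each processing setting, with bars of 1 SE. Filled points have an adjusted P under 0.05, diamonds are differences within a slide without a test, and the bottom row holds the 18 fits without 1 array each. All values lie below 0, between -0.47 and -0.19, and 12 of 16 alternative settings with a test pass the threshold.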

How the data were processed

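The members and lists were chosen with earlier results of these data known. The authors labelled total RNA that retained small RNAs with cyanine 3, hybridised it to 1-colour Agilent mouse miRNA arrays and extracted the images with Feature Extraction 10.7.3.1. What the authors deposited per array is the scanner output, linear intensity per spot, not normalised between arrays. The authors also deposited a table, read as log2 signal because its columns correlated between 0.991 and 1.000 with the log2 median signal over 574 shared names. Its centring is unknown (column medians 5.74 to 5.76), and it served as an alternative. A genome build is not given in the sources used here, and loci are those of RefSeq (GRCm38.p6).

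Following the methods of the study, median signals of the 11540 non-control spots were taken without background subtraction, log2-transformed and normalised by cyclic loess, and slide was a block. Outlier spots were removed (1.91% to 3.84% per array). The median over spots and the mean over present probes were taken. A probe was kept when present on at least a share of 0.8 of the arrays of 1 group, which left 112 probes of 69 names. Models were fitted to all 18 arrays with limma 3.58.1 (lmFit, eBayes, two-sided) in R 4.3.3, where the study used MAANOVA. Exact permutation tests were two-sided. Replicate numbers only name arrays. With 1 array per animal, p-values rest on a spread in which variation between animals and between arrays cannot be told apart. The number of arrays limits the precision. Named were the 7 members, the tested list miRNAs, the 3 miRNAs most like each member, the marker lists and mmu-miR-34a. The fits were tested on simulated data. Alternatives are given at the end. The study dosed 5 control animals, of which 3 are analysed here. It reports that miRNA arrays were eliminated after boxplots and cluster analyses used to find outliers, without naming their dose groups. All 5 animals of each BaP dose are present here, so the arrays absent are those of controls. The study does not state that these are the eliminated arrays. If they are, every difference from vehicle rests on controls kept after the data were inspected.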

Additional observations from a re-analysis of the deposited data

How the results depend on the processing

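No paired analysis was possible because the labels give no replicate numbers. At 75 mg/kg/day 1 member was called, and 0 were called with array medians centred, the processed signal, total gene signal and no slide in the model, where mmu-miR-10a differed by -0.47, -0.36, -0.21 and -0.28. The same 4 settings called 0 members in the trend over dose, with slopes of -0.14, -0.12, -0.056 and -0.086, and slide as a random block called 2. With the authors' deposited values 1 member was called at 25 and 1 at 50 mg/kg/day (mmu-miR-10a in both), where 10.1% and 4.35% of all miRNAs were called, 87.0% and 76.8% lay below 0 and the median of all was -0.11 and -0.06, and with the number of names detected as a covariate 1 was called at 50 and 1 between 75 and 25 mg/kg/day. Leaving out each array in turn gave 0 to 2 members called at 75 mg/kg/day, 0 to 1 between 75 and 25 mg/kg/day and 1 to 2 in the trend, with mmu-miR-10a between -0.29 and -0.22 at 75 mg/kg/day and 17 of 18 fits past the threshold.

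Some results turned direction, all but mmu-let-7c at 75 mg/kg/day among those that had not passed the threshold. For mmu-miR-99a, quantile normalisation gave 0.011 at 25 mg/kg/day and -0.032 between 75 and 25 mg/kg/day, the processed signal 0.065, 0.028 and 0.091 at the 3 doses and a slope of 0.025, and total gene signal 0.11, 0.088 and 0.23 and a slope of 0.0702. Its difference between 75 and 25 mg/kg/day was -0.021 without a filter and -0.022 without both arrays with the fewest names detected (chosen after seeing the data), and its slope was 0.000527 with the covariate and between -0.016 and 0.0012 over the fits without 1 array. For mmu-miR-100, the processed signal gave 0.072 at 50 and 0.068 between 75 and 25 mg/kg/day, and total gene signal 0.504 and 0.39. For mmu-miR-125b-5p, the difference between 75 and 25 mg/kg/day was 0.071 with quantile normalisation, 0.48 with the processed signal and 0.85 with total gene signal, the slope was 0.0099 and 3.75e-06 with the last 2 of these, and total gene signal gave 0.058 at 50 mg/kg/day. mmu-miR-10a was at 0.068 at 50 mg/kg/day with total gene signal. In that signal mmu-miR-100 stood at the floor on 4 arrays and mmu-miR-125b-5p on 3, and the ratio of mmu-miR-10a to them changed by 0.91 and 0.18. mmu-let-7a at 75 mg/kg/day was at 0.012 with the processed signal and 0.21 with total gene signal, and mmu-let-7c with total gene signal at 0.033 and 0.0031 at 25 and 75 mg/kg/day.

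The median of all 69 miRNAs at 75 mg/kg/day was -0.25 with array medians, 0.21 with total gene signal and -0.11 with the authors' values, and mmu-miR-10a stood at -0.22, -0.42 and -0.15 relative to it. Calls at 75 mg/kg/day were 1 higher and 3 lower, 3 higher and 0 lower with the processed signal, and 10 higher and 0 lower with total gene signal. Their number ranged from 1 to 10 over the settings and from 1 to 9 with 1 array left out, and in the trend, with 7 calls, from 1 to 12 and from 4 to 11. Calls ranged over the settings from 0 to 7 at 25 mg/kg/day, from 0 to 4 at 50 mg/kg/day and from 0 to 4 between 75 and 25 mg/kg/day. The 18 ratios gave 0 calls by the exact permutation test in the 3 other settings run, where a single ratio could not pass. The cause of these differences was not tested.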
